A study of Mus musculus with 7 samples.

Results

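Chemokines and their receptors were examined as a family of genes in RNA-seq of whole mouse livers. Members were chosen by symbol: rows of the count table named Ccl, Cxcl, Ccr or Cxcr with a number and at most a letter from a to d, together with *Cx3cl1*, *Xcl1*, *Xcr1* and *Ackr1*, *Ackr2*, *Ackr3* and *Ackr4*. Of the 23347 genes in the table, 54 were members. The 41 members with 10 or more counts in 3 or more of the 7 livers are described, and the other 13 are listed at the end.

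The livers came from male mice on a C57BL/6 background that were given a high-fat diet without choline in which amino acids stand in for protein (CDAHFD), which produces steatohepatitis, for 15 weeks. In 4 littermate controls, labelled WT, both *B4galt1* alleles were floxed and intact (*B4galt1* flox/flox). In 3 mice, labelled B4galt1-HKO, the same floxed alleles were combined with Cre driven by the albumin promoter, which acts in hepatocytes (*B4galt1* hep-/-). The diet and the floxed alleles were thus common to both groups, leukocytes and other non-hepatocytes were not the target of the Cre, and the mice were 6 to 8 weeks old at the start of the diet by the study's methods. *B4galt1* encodes a Golgi enzyme that adds galactose to the glycans of proteins.

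Chemokines are small secreted proteins that guide leukocytes, and most act through G protein-coupled receptors on the cells they attract. Many inflammatory ligands share receptors, while homeostatic ligands such as *Cxcl12* place cells in tissues in the absence of injury. Atypical receptors bind ligands without the usual G protein signal and clear or store them. In steatohepatitis, hepatocytes, Kupffer cells, stellate cells and endothelial cells all make chemokines, and the receptors sit mainly on leukocytes.

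The targeted gene was read first. *B4galt1* stood at 48.7, 53.0, 49.2 and 51.6 CPM (counts scaled to library size by the TMM method) in flox/flox livers 1 to 4. It stood at 28.4, 23.9 and 53.7 CPM in the livers labelled *B4galt1* hep-/- 1 to 3, so that replicate 3 was above every control. The log2 fold change was -0.52 ± 0.26 (SE; adjusted p = 0.181, edgeR), and the called results are therefore also given without the library labelled hep-/- replicate 3. Library totals ran from 37838654 to 39668509 counts in flox/flox livers and from 30608271 to 34586588 in the livers labelled hep-/-. Mitochondrially encoded genes took 3.88% to 8% of counts in the first group and 14.4% to 22.6% in the second, and the part of this gap in the results was not tested. Leaving those genes out of the library sizes kept all 5 calls given next, and leaving out hep-/- replicate 3 left 3 of 41 members called (7.32%, beside 13.8% of all genes in that fit), *Cxcl1*, *Cxcl12* and *Xcl1*.

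Chemokine and receptor genes were called at a share near that of all genes tested. A gene was called where edgeR's quasi-likelihood test gave a Benjamini-Hochberg adjusted p below 0.05 over all 15179 genes tested and the log2 fold change passed 0.58 in size, which is 1.5-fold. By this rule 5 of 41 members (12.2%) were called, beside 15.8% of all genes tested. *Ccl7*, *Cxcl12* and *Cxcl16* were lower in the livers labelled hep-/-, where 7.83% of all genes were called lower, and *Cxcl1* and *Ccl25* were higher, where 8% were called higher. All 5 were ligands, of 26 ligands described, and none of the 15 receptors was called. Whether ligands and receptors differ in this was not tested. At an unadjusted p under 0.05, edgeR gave 11 of 41 members (26.8%), 10 ligands and the receptor *Cxcr4*, beside 32.9% of all genes tested. DESeq2 called 9 of 40 members (22.5%), beside 21.3% of all genes, and these were the same 5 ligands with *Ccl6*, *Ccl27a*, *Xcl1* and *Cxcr4*.

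In 7 of 41 members (17.1%) the CPM of the 2 groups did not overlap, beside 28.6% of all genes tested. They were the 5 called ligands with *Xcl1* and *Ccl17*, the last of which met the count rule only through the livers labelled hep-/-, so that it had to differ. *Ccl7* met that rule through the flox/flox livers, as only 1 liver labelled hep-/- had 10 or more counts. An exact two-sided permutation test of the mean CPM gave p = 0.0286, the smallest that 4 against 3 livers allow, for *Cxcl1*, *Cxcl12*, *Ccl25* and *Xcl1*. It gave p = 0.0571 for *Ccl7* and p = 0.0857 for *Cxcl16* (exact permutation test). The median log2 fold change was -0.09 over the 41 members and 0.02 over all genes, -0.26 over the ligands and 0.05 over the receptors. Members that were not called are given by their values, since 15 of them changed sign in at least 1 of 19 other ways of processing, and none of the 5 called members did.

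**Figure D1:**
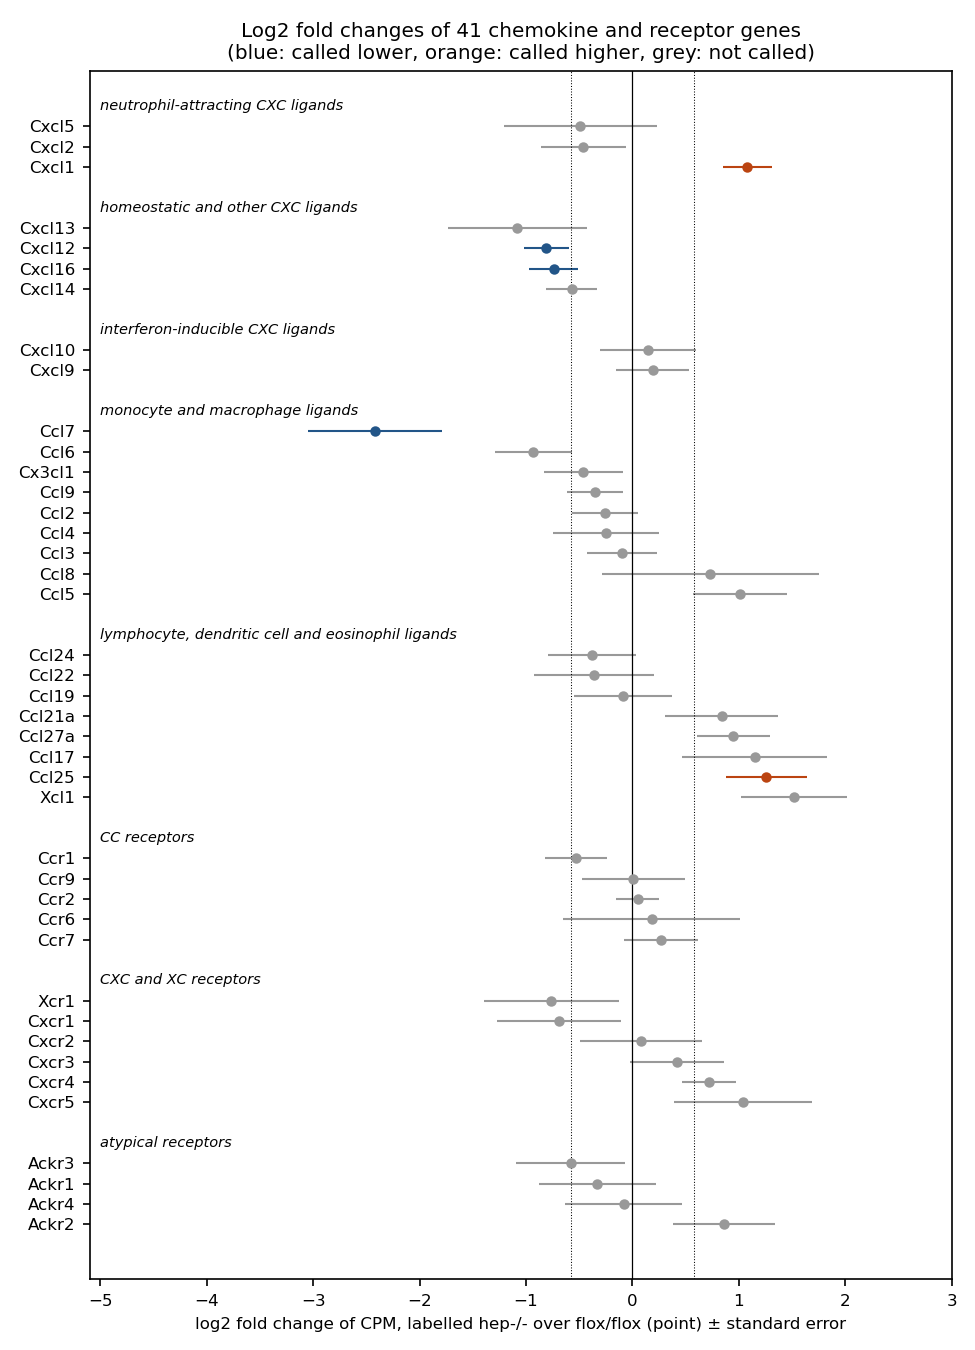
Log2 fold change of CPM (horizontal axis; point) with its standard error (line) for each of the 41 members, in groups by role, for 3 livers labelled *B4galt1* hep-/- over 4 flox/flox livers. Dotted lines mark 0.58 in either direction; the called genes are *Ccl7*, *Cxcl12* and *Cxcl16* to the left and *Cxcl1* and *Ccl25* to the right.

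Ligand transcripts were more abundant than receptor transcripts in every liver, with summed FPKM of 166 to 284 for the 26 ligands and 12.5 to 21.4 for the 15 receptors. The FPKM scale, as deposited, divides by transcript length and so allows levels of different genes to be compared; on it 6 members had a mean of 10 or more over all livers, 17 lay from 1 to under 10, and 18 lay under 1. The 6 were all ligands: *Ccl5* at 50.6, *Cxcl12* at 35.5, *Ccl9* at 32.2, *Ccl6* at 30.9, *Cxcl1* at 17.3 and *Cxcl16* at 15.2 FPKM. This order is of means over both groups and differed between them. In flox/flox livers *Cxcl12* (44.9 FPKM), *Ccl6* (40.1), *Ccl5* (38.4) and *Ccl9* (36.7) came before *Cxcl16* (18.9) and *Cxcl1* (12.3). In the livers labelled hep-/- *Ccl5* (66.9 FPKM) came before *Ccl9* (26.2), *Cxcl1* (23.9), *Cxcl12* (23.1), *Ccl6* (18.7) and *Cxcl16* (10.3). Among the first 4 in flox/flox livers, neighbours differed by less than the spread between mice, which was 25.3 FPKM (SD) for *Ccl5*. The highest receptor was *Cxcr4* at 6.08 FPKM, followed by *Ccr2* at 3.68 and *Ccr1* at 2.10 FPKM.

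Within the summed FPKM of the 26 ligands, *Cxcl12* made up 18.7% ± 0.978 (SD, n = 4) in flox/flox livers and 11.04% ± 1.997 (SD, n = 3) in those labelled hep-/-. *Cxcl1* made up 5.20% ± 1.24 (SD, n = 4) and 11.7% ± 3.59 (SD, n = 3). Both shares lay apart between the groups, from 17.5% to 19.8% against 8.74% to 12.3% for *Cxcl12* and from 3.61% to 6.57% against 7.76% to 14.8% for *Cxcl1*. These genes were picked for this share after their values were seen, so no test is given.

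**Figure D2:**
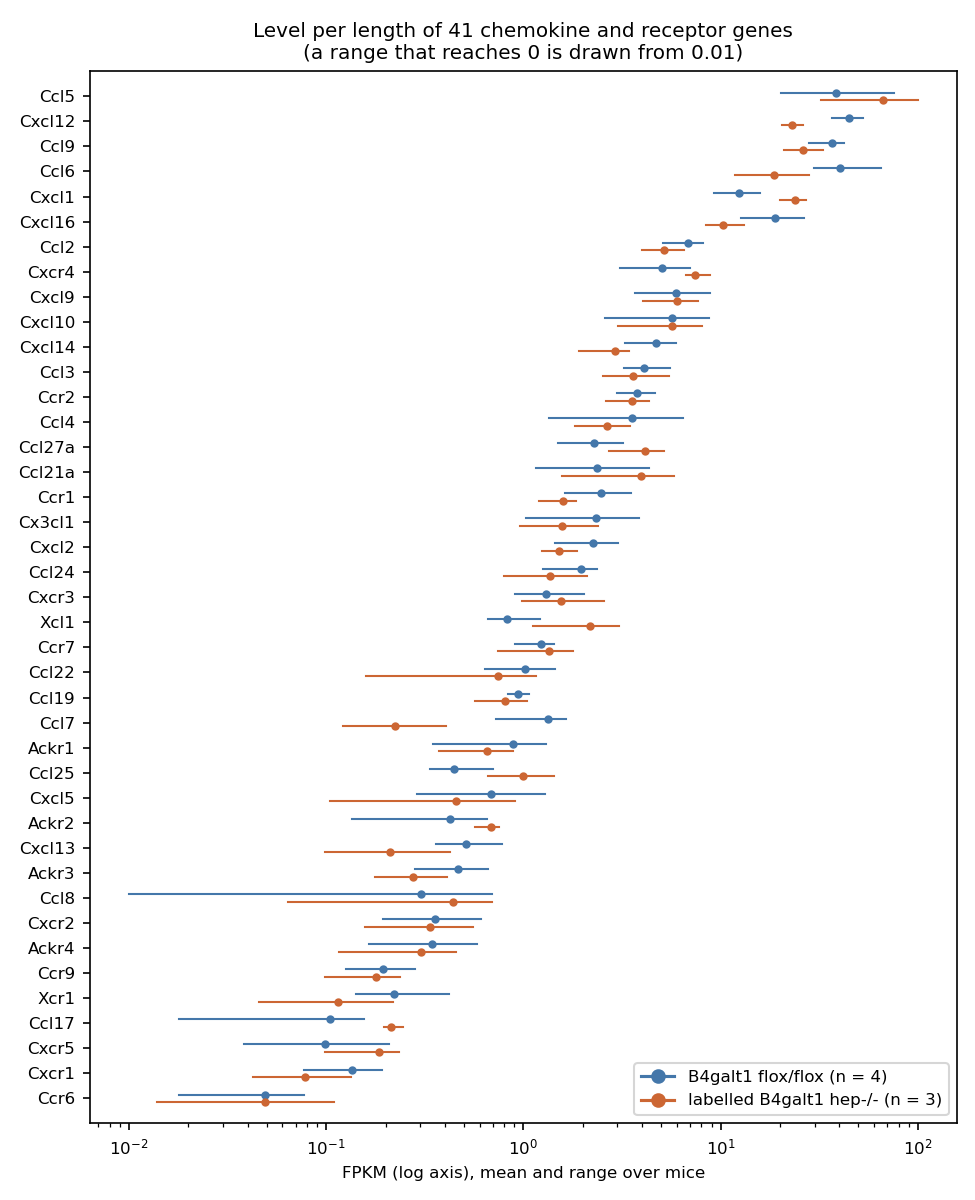
FPKM (horizontal log axis) of each member, ordered by its mean over all livers, with the mean (point) and the range over mice (line) for 4 flox/flox livers (blue) and 3 livers labelled *B4galt1* hep-/- (orange). The 6 ligands *Ccl5*, *Cxcl12*, *Ccl9*, *Ccl6*, *Cxcl1* and *Cxcl16* lie above 10 FPKM on average, and no receptor does.

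Among the ligands that attract neutrophils, *Cxcl1* was higher in the livers labelled hep-/-, while *Cxcl2* and *Cxcl5* were not called; whether these fold changes differ was not tested. *Cxcl1* binds *Cxcr2* and is induced by interleukin-1 and tumour necrosis factor. Its levels were 13.3, 9.96, 8.22 and 14.01 CPM in flox/flox livers 1 to 4 and 21.2, 21.7 and 29.4 CPM in the livers labelled hep-/- 1 to 3. Every liver labelled hep-/- was above every control, and the group means were 11.4 ± 2.74 (SD, n = 4) and 24.1 ± 4.62 CPM (SD, n = 3). The difference was 2.12-fold, or 1.08 ± 0.23 on the log2 scale (SE; adjusted p = 0.0122, edgeR). *Cxcl1* was the only member called in the main analysis and in all 19 alternatives, with log2 fold changes from 0.91 to 1.21, and of 0.91 without the library labelled hep-/- replicate 3.

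*Cxcl2*, a close relative of *Cxcl1* that binds the same receptor, ran from 1.45 to 3.48 CPM in flox/flox livers and from 1.24 to 2.24 CPM in the others (log2 fold change -0.46 ± 0.40, adjusted p = 0.449, edgeR). *Cxcl5* ran from 0.477 to 2.29 CPM and from 0.197 to 1.66 CPM (-0.49 ± 0.72, adjusted p = 0.666). Their receptor *Cxcr2* was at 1.08 ± 0.515 (SD, n = 4) and 1.14 ± 0.735 CPM (SD, n = 3), and *Cxcr1* was at 0.439 ± 0.127 and 0.272 ± 0.135 CPM; the groups overlapped for both. Of 8 neutrophil marker genes, 7 were tested and none was called, and the summed list ran from 26.1 to 38.3 CPM in flox/flox livers and from 27.8 to 48.4 CPM in those labelled hep-/-.

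*Cxcl1* and *Cxcl2* lie close together on mouse chromosome 5, and their promoters are shown because both hold the pattern searched here while only *Cxcl1* was called. RefSeq's promoter table (GRCm38.p6) held 32 of the 41 members. The pattern GGGNNNTTCC, the kind of site that NF-kB proteins bind, was searched on both strands from 250 bases before to 50 after each start; the forward and reverse matches can overlap. It was 1 of 6 patterns looked at, and it was chosen after the matches were seen. It occurred in 5 of 32 members (15.6%), namely *Ccl9*, *Ccr6*, *Cxcl1*, *Cxcl10* and *Cxcl2*, and in 6.31% of 27025 genes. The 250 bases before the start, 5′ to 3′ on the gene's strand with the matches in capitals, lie at chr5:90890995-90891244 (plus strand) for *Cxcl1* and at chr5:90903649-90903898 (plus strand) for *Cxcl2*.
*Cxcl1*: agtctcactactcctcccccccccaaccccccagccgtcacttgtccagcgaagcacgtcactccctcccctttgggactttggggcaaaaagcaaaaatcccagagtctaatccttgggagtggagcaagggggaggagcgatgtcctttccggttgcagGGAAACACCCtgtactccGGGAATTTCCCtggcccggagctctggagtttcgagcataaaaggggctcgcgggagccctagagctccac
*Cxcl2*: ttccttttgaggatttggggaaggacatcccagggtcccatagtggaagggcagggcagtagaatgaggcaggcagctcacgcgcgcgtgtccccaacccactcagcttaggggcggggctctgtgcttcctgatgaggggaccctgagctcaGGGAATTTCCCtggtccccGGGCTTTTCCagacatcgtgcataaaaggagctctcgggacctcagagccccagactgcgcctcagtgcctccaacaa

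The match that both promoters hold, GGGAATTTCC, starts at position -71 from the start of *Cxcl1* and at -97 from that of *Cxcl2*. A match is a description of the letters and not evidence of binding. The list of cytokine and NF-kB pathway genes that can induce chemokines held 30 genes, of which 28 were tested. Of these, 2 were called higher and 1 lower, beside 8% and 7.83% of all genes tested. By sign 14 were higher and 14 lower, and the median log2 fold change was 0.04. The list's sum ran from 1032 to 1101 CPM in flox/flox livers and from 1203 to 1379 CPM in those labelled hep-/-. *Cebpb* alone took 162 and 310 CPM of it on average. *Il1r1*, the signalling receptor of interleukin-1, was higher (1.39, adjusted p = 0.00732, edgeR), as was the transcription factor *Cebpb* (0.94, adjusted p = 0.0184). The interferon-gamma receptor chain *Ifngr2* was lower (-0.88, adjusted p = 0.0134). The cytokine genes *Il1a* (-0.02), *Il1b* (-0.61) and *Tnf* (0.38) were not called.

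**Figure D3:**
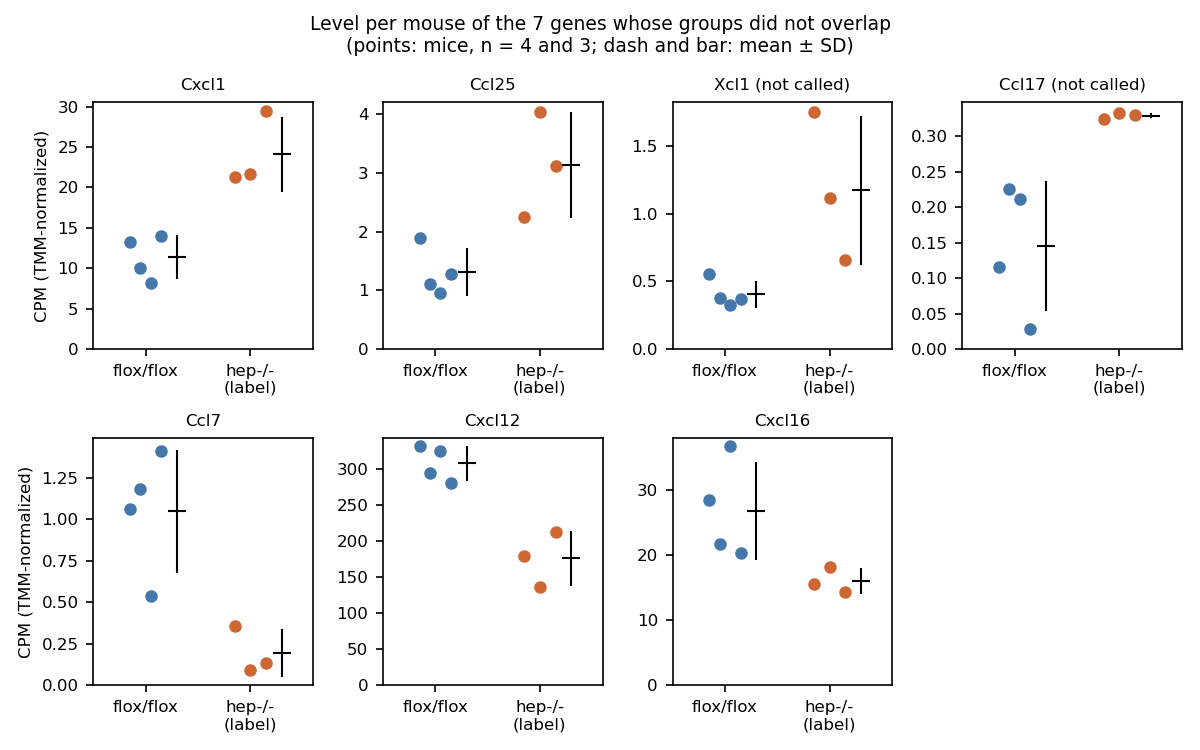
CPM of each mouse (vertical axes, each from 0) for the 7 members whose groups did not overlap, with 4 flox/flox livers in blue and 3 livers labelled *B4galt1* hep-/- in orange, and the mean ± SD beside them. *Cxcl1* runs from 8.22 to 14.01 CPM in the first group and from 21.2 to 29.4 CPM in the second, while *Cxcl16* leaves only a narrow gap, from 20.3 to 18.1 CPM.

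The homeostatic and other CXC ligands had the lowest median of the ligand groups, at -0.78, and 2 of their 4 members were called lower, beside 7.83% of all genes tested; with so few members, nothing particular to the group is read from this. *Cxcl12*, made mainly by stromal and endothelial cells, holds cells that carry *Cxcr4* in place. It was at 331, 294, 325 and 280 CPM in flox/flox livers 1 to 4 and at 179, 136 and 212 CPM in the livers labelled hep-/- 1 to 3. All 3 of these were below all 4 controls, with means of 308 ± 24.6 (SD, n = 4) and 176 ± 38.5 CPM (SD, n = 3). The difference was 1.75-fold, or -0.81 ± 0.21 on the log2 scale (SE; adjusted p = 0.0261, edgeR). The call was lost without flox/flox replicate 2 (-0.83, adjusted p = 0.0665), flox/flox replicate 3 (-0.78, 0.0593), hep-/- replicate 1 (-0.84, 0.0557) or hep-/- replicate 2 (-0.65, 0.0654). It held without hep-/- replicate 3 (-0.97, adjusted p = 0.0206).

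*Cxcr4*, the signalling receptor of *Cxcl12*, was at 13.9, 13.2, 18.6 and 9.52 CPM in flox/flox livers and at 21.2, 18.1 and 28.9 CPM in the others. Replicate 2 of the livers labelled hep-/- lay below flox/flox replicate 3, so the groups overlapped. Its log2 fold change was 0.72 ± 0.25 (SE; adjusted p = 0.0692, edgeR), and it was called without flox/flox replicate 3 (0.89, adjusted p = 0.0436) and was 0.50 (adjusted p = 0.227) without hep-/- replicate 3. *Ackr3*, the atypical receptor that takes up *Cxcl12*, ran from 0.706 to 1.43 CPM and from 0.455 to 1.09 CPM (-0.58 ± 0.51, adjusted p = 0.451). Of 9 stellate cell and fibroblast markers none was called, and their sum ran from 923 to 1380 CPM in flox/flox livers and from 837 to 1400 CPM in the others. Of 8 endothelial markers, *Stab1* was higher (1.11, adjusted p = 0.0232) and *Kdr* was lower (-1.33, adjusted p = 0.0441), and the sum ran from 155 to 460 CPM and from 241 to 362 CPM.

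*Cxcl16*, a ligand that is also made as a membrane-bound protein by macrophages, was at 28.4, 21.6, 36.7 and 20.3 CPM in flox/flox livers and at 15.5, 18.1 and 14.3 CPM in those labelled hep-/-. The groups did not overlap, with 18.1 CPM in the highest of the second and 20.3 CPM in the lowest of the first. The log2 fold change was -0.74 ± 0.23 (SE; adjusted p = 0.0495, edgeR), which lies at the threshold. The call was lost when any library other than flox/flox replicate 4 was left out. The adjusted p then ran from 0.0685 without hep-/- replicate 2 to 0.119 without hep-/- replicate 3 (edgeR). The call was also lost with the other 2 scalings of the counts, the filter of 10 counts in every library, voom weights and the replicate block. Limma on log2(FPKM + 1) without a filter lost it as well, so that it held in 7 of 19 alternatives. *Cxcl14*, a ligand of epithelia and macrophages, ran from 10.9 to 17.2 CPM and from 6.84 to 11.8 CPM (-0.57 ± 0.24, adjusted p = 0.125). *Cxcl13*, which draws B cells into follicles, was at 0.569 ± 0.160 (SD, n = 4) and 0.268 ± 0.246 CPM (SD, n = 3), and its receptor *Cxcr5* at 0.243 ± 0.169 and 0.506 ± 0.186 CPM; neither was called (adjusted p = 0.271 and 0.285, edgeR).

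Of the 9 ligands that act on monocytes and macrophages, 1 was called, and the group's median log2 fold change was -0.26. *Ccl7*, a ligand of *Ccr2* that mobilises monocytes, was read from 46, 47, 23 and 50 counts in flox/flox livers and from 11, 3 and 4 counts in those labelled hep-/-. In CPM these were 1.06, 1.18, 0.539 and 1.41 against 0.357, 0.0905 and 0.132. Only 1 liver labelled hep-/- had 10 or more counts, so *Ccl7* met the count rule through the flox/flox livers, where it is higher. The groups did not overlap, and the fold change of 5.36 was the largest of the called members, but it rests on few counts. On the log2 scale it was -2.42 ± 0.63 (SE; adjusted p = 0.0270, edgeR). The call was lost without flox/flox replicate 2 (-2.36, adjusted p = 0.0726) or 4 (-2.25, 0.0593) and without hep-/- replicate 2 (-2.08, 0.0870) or 3 (-2.22, 0.0714), and the value was -3.22 (adjusted p = 0.0272) without hep-/- replicate 1.

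The other ligands of *Ccr2* and the receptor itself were not called. *Ccl2*, the main monocyte chemoattractant, was at 5.34 ± 1.13 (SD, n = 4) and 4.45 ± 1.48 CPM (SD, n = 3), with a log2 fold change of -0.26 ± 0.31 (adjusted p = 0.586, edgeR). *Ccl8* was at 0.148 ± 0.156 and 0.2496 ± 0.192 CPM (0.73 ± 1.02, adjusted p = 0.652). *Ccr2*, which inflammatory monocytes carry, was at 17.0 ± 2.26 and 17.5 ± 2.97 CPM (0.05 ± 0.20, adjusted p = 0.894).

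None of the related ligands *Ccl6*, *Ccl9*, *Ccl3* and *Ccl4* was called in the main fit. *Ccl6* was called lower by DESeq2, by limma on filtered log2(FPKM + 1) and log2(FPKM + 0.1), and with the filter of 1 count. *Ccl6*, which macrophages make, was at 37.5, 49.4, 86.1 and 48.0 CPM in flox/flox livers and at 44.7, 15.7 and 26.5 CPM in the others. The groups overlapped through replicate 1 of those labelled hep-/-, and the log2 fold change was -0.93 ± 0.36 (SE; adjusted p = 0.0925, edgeR); without that library it was -1.40 (adjusted p = 0.0324), and it was -0.63 (adjusted p = 0.240) without hep-/- replicate 2 and -0.64 (adjusted p = 0.224) without flox/flox replicate 3. *Ccl9*, its neighbour and relative, was at 107 ± 22.1 (SD, n = 4) and 84.2 ± 27.4 CPM (SD, n = 3; log2 fold change -0.35, adjusted p = 0.371). *Ccl3* was at 3.09 ± 0.542 and 2.88 ± 0.978 CPM (-0.10, adjusted p = 0.862) and *Ccl4* at 2.23 ± 1.25 and 1.87 ± 0.713 CPM (-0.25, adjusted p = 0.757). Whether the intervals of *Ccl3* and *Ccl4* overlap in GRCm39, the build of the counts, was not checked. If they do, reads in the shared stretch may not have been assigned to either gene.

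*Ccl5*, which T and NK cells make in quantity, varied widely within groups. It was at 35.3, 10.7, 13.5 and 17.2 CPM in flox/flox livers and at 58.7, 15.9 and 41.4 CPM in those labelled hep-/-. Replicate 2 of the latter lay inside the range of the controls, and the log2 fold change of 1.01 ± 0.44 was not called (SE; adjusted p = 0.134, edgeR). It was called without flox/flox replicate 1 (1.49, adjusted p = 0.0268) and without hep-/- replicate 2 (1.38, adjusted p = 0.0434), and the value was 0.56 (adjusted p = 0.446) without hep-/- replicate 1. The summed T and NK cell markers were 42.4, 16.9, 22.4 and 27.2 CPM and 60.0, 22.1 and 35.5 CPM in the same livers. Within each group the highest and lowest livers for *Ccl5* were also the highest and lowest for these markers, and their part in the result was not tested.

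*Ccr1*, a receptor of several of these ligands on monocytes, ran from 4.94 to 9.25 CPM in flox/flox livers and from 3.88 to 5.29 CPM in those labelled hep-/- (log2 fold change -0.53 ± 0.29, adjusted p = 0.230, edgeR). *Cx3cl1*, the membrane-bound ligand of endothelium and epithelium, ran from 3.45 to 10.6 CPM and from 3.42 to 6.94 CPM (-0.46 ± 0.37, adjusted p = 0.421).

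Some macrophage markers were also lower in the livers in which *Ccl7* and *Cxcl16* were lower. Of 12 markers of recruited macrophages and monocytes, 7 were called lower and none higher in the livers labelled hep-/-. Of all genes tested, 7.83% were called lower. The list's median was -0.85 on the log2 scale, with sums from 2070 to 4488 CPM against 1170 to 1689 CPM. The 5 with the largest change were *Lyz2* (-2.15, adjusted p = 0.00380, edgeR), *Gpnmb* (-1.72), *Mmp12* (-1.53), *Cd68* (-1.15) and *Fabp5* (-0.99). Of 7 Kupffer cell markers, *Vsig4*, *Marco* and *Folr2* were called lower, with log2 fold changes of -1.24, -1.24 and -1.21. By sign 6 were lower and 1 was higher, *Cd163* (0.86), and the median was -1.09. *Clec4f* (-0.47) was not called. The sums overlapped, at 193 to 441 CPM and 98.2 to 205 CPM. Of 7 pan-leukocyte markers, *Lcp1* (-1.21, adjusted p = 0.00908) and *Laptm5* (-0.90, adjusted p = 0.0261) were called lower and none was called higher. By sign 4 were lower and 3 were higher, namely *Ptprc* (0.37), *Cd52* (0.27) and *Coro1a* (0.20). The list's median was -0.61, and its sums were 421 to 615 CPM and 302 to 434 CPM. No marker of these lists was at 0 in all livers. The part of these markers in the chemokine results was not tested, and in whole liver, fewer cells of a type and less RNA per cell cannot be told apart.

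**Figure D4:**
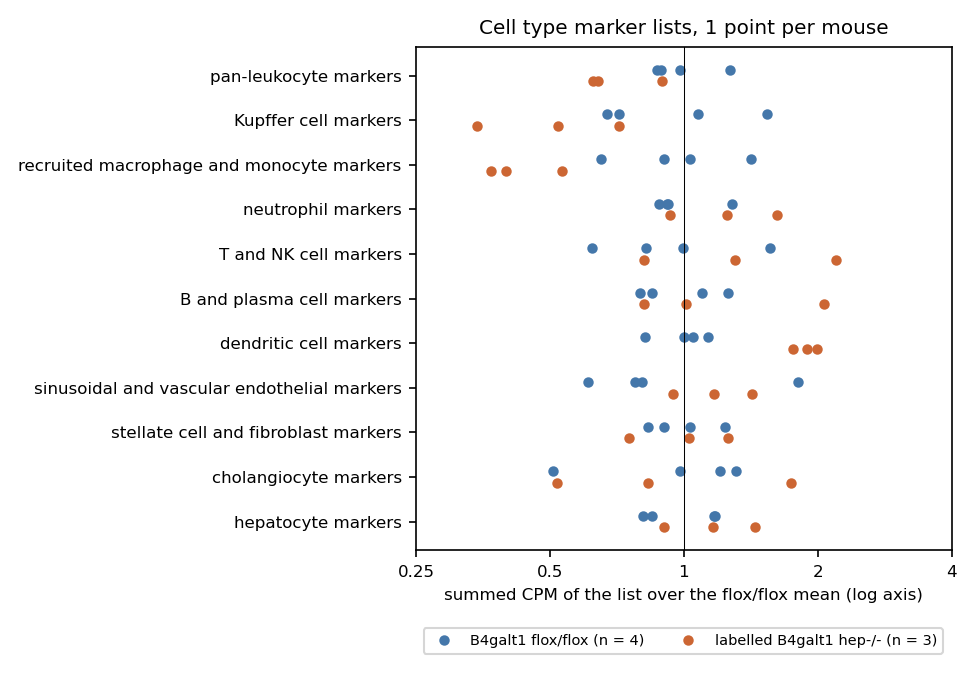
Summed CPM of each marker list in each mouse, divided by the mean of the 4 flox/flox livers (horizontal log axis; blue, n = 4; orange, livers labelled *B4galt1* hep-/-, n = 3). The recruited macrophage and dendritic cell lists are the ones in which the groups do not overlap, the former with orange points to the left and the latter with orange points to the right.

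Neither of the ligands induced by interferon was called. *Cxcl9* was at 16.5 ± 6.54 (SD, n = 4) and 18.8 ± 7.20 CPM (SD, n = 3), with a log2 fold change of 0.19 ± 0.34 (adjusted p = 0.729, edgeR). *Cxcl10* was at 6.13 ± 3.11 and 6.79 ± 3.43 CPM (0.15 ± 0.45, adjusted p = 0.845). Their receptor on activated T cells, *Cxcr3*, ran from 1.55 to 2.85 CPM and from 1.63 to 4.58 CPM (0.42 ± 0.44, adjusted p = 0.532). Spread within each group was wide for all 3 genes, and differences well above these standard errors could have been missed. For scale, *Xcl1* was not called at a log2 fold change of 1.52 ± 0.50 (SE).

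The 8 ligands of lymphocytes, dendritic cells and eosinophils had a median log2 fold change of 0.89, and 1 was called. *Ccl25*, known for drawing cells that carry *Ccr9* to the gut and thymus, was at 1.89, 1.10, 0.961 and 1.27 CPM in flox/flox livers and at 2.24, 4.04 and 3.12 CPM in those labelled hep-/-. The groups did not overlap, and the difference was 2.40-fold, or 1.26 ± 0.38 on the log2 scale (SE; adjusted p = 0.0431, edgeR). The call was lost without flox/flox replicate 2 (1.18, adjusted p = 0.127), 3 (1.14, 0.0908) or 4 (1.25, 0.0845), and without hep-/- replicate 2 (1.04, 0.144) or 3 (1.25, 0.0768). Its receptor *Ccr9* was at 0.805 ± 0.246 (SD, n = 4) and 0.811 ± 0.275 CPM (SD, n = 3).

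*Xcl1*, made by NK and CD8+ T cells, attracts the dendritic cells that carry *Xcr1*. It was at 0.552, 0.376, 0.328 and 0.367 CPM in flox/flox livers and at 1.75, 1.12 and 0.658 CPM in the others. The groups did not overlap, and the log2 fold change of 1.52 ± 0.50 was the highest of all members but was not called (SE; adjusted p = 0.0584, edgeR). It was called without hep-/- replicate 3 (1.80, adjusted p = 0.0450) and was 1.11 (adjusted p = 0.223) without hep-/- replicate 1. *Xcr1* was at 1.63, 0.728, 0.656 and 0.678 CPM and at 1.07, 0.332 and 0.230 CPM (-0.76 ± 0.63, adjusted p = 0.424), so its 2 lowest livers were labelled hep-/-. Among 6 dendritic cell markers, *Clec9a*, a receptor of the same dendritic cells, was higher (1.39, adjusted p = 0.00656), and the summed list ran from 16.0 to 22.1 CPM and from 34.3 to 39.0 CPM.

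*Ccl17*, a ligand of *Ccr4*, was read from 5, 9, 9 and 1 counts in flox/flox livers and from 10, 11 and 10 counts in those labelled hep-/-. As it met the count rule only through the second group, these counts had to differ, and its log2 fold change of 1.15 ± 0.68 was not called (SE; adjusted p = 0.263, edgeR). *Ccl22*, which shares that receptor, ran from 1.24 to 2.61 CPM and from 0.329 to 1.93 CPM (-0.36 ± 0.56, adjusted p = 0.684). *Ccl27a*, a ligand known from skin, was at 2.51, 1.96, 2.69 and 4.52 CPM in flox/flox livers and at 6.56, 6.24 and 4.05 CPM in those labelled hep-/-. The groups overlapped through flox/flox replicate 4 and hep-/- replicate 3, and the log2 fold change of 0.95 ± 0.34 was not called (SE; adjusted p = 0.0771, edgeR); it was called without flox/flox replicate 4 (1.23, adjusted p = 0.0419) and was 0.80 (adjusted p = 0.195) without flox/flox replicate 2. *Ccl24*, which attracts eosinophils, was at 2.57 ± 0.589 and 1.98 ± 1.05 CPM (-0.38 ± 0.41, adjusted p = 0.554).

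*Ccl19* and *Ccl21a* guide cells with *Ccr7* into lymphoid tissue. *Ccl19* was at 0.690 ± 0.0703 (SD, n = 4) and 0.648 ± 0.202 CPM (SD, n = 3; log2 fold change -0.09, adjusted p = 0.911, edgeR). *Ccl21a* was at 1.995 ± 1.27 and 3.56 ± 2.02 CPM (0.84, adjusted p = 0.292), and *Ccr7* at 2.31 ± 0.263 and 2.79 ± 1.11 CPM (0.27, adjusted p = 0.628). *Ccr6*, the receptor of *Ccl20*, was at 0.200 ± 0.111 and 0.227 ± 0.259 CPM (0.18 ± 0.83, adjusted p = 0.905). *Ccl21a* and *Ccl27a* have near-identical copies, *Ccl21b* and *Ccl27b*, each with 1 count in all, so reads shared by the copies may be missing from their values.

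The remaining atypical receptors were scarce and not called by edgeR. *Ackr2*, which clears inflammatory CC ligands, was at 1.33, 0.427, 1.92 and 1.44 CPM in flox/flox livers and at 2.60, 1.66 and 2.73 CPM in the others, with overlap through replicate 2 of the latter (0.86 ± 0.48, adjusted p = 0.233, edgeR). With voom quality weights *Ackr2* was called higher (1.66, adjusted p = 0.0331). *Ackr1*, which venous endothelium uses to hold chemokines, was at 1.003 ± 0.508 (SD, n = 4) and 0.795 ± 0.323 CPM (SD, n = 3; -0.33, adjusted p = 0.706). *Ackr4*, which removes the ligands of *Ccr7*, was at 0.885 ± 0.420 and 0.838 ± 0.418 CPM (-0.08, adjusted p = 0.937).

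In the list of 31 genes of chemokine receptor signalling, all were tested and the median log2 fold change was -0.17. Of these, 2 were called higher and 2 lower, beside 8% and 7.83% of all genes tested. *Grk3* (1.26, adjusted p = 0.0316, edgeR) and *Arrb2* (0.93, adjusted p = 0.0148), which switch off activated receptors, were called higher. Others of this kind were not called, with log2 fold changes of 0.46 for *Grk2*, -0.41 for *Arrb1*, -0.39 for *Grk5* and -0.38 for *Grk6*. The kinase *Ptk2b* (-0.75, adjusted p = 0.0150) and the transcription factor *Stat3* (-0.60, adjusted p = 0.0492) were lower. Of 9 further genes of the chemokine system, 8 were tested and none was called, with a median of -0.52.

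The 13 members under the count rule were *Ccl1*, *Ccl11*, *Ccl12*, *Ccl20*, *Ccl21b*, *Ccl27b*, *Ccl28*, *Ccr3*, *Ccr4*, *Ccr8*, *Ccr10*, *Cxcl3* and *Cxcl17*, and no fold change is given for them. Just outside the rule, *Ccr3* reached 13 counts and *Ccl20* and *Cxcl3* reached 12 counts in a single liver each. Just inside it, *Ccr6* had 10, 13 and 16 counts and *Ccl8* had 10, 12 and 14 counts in the 3 livers that met it. In a library, 3 counts stood for 0.0690 to 0.0987 CPM, and levels near this cannot be told from 0.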

How the data were processed

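Total RNA of whole livers was extracted with TRIzol, and libraries were made with the VAHTS Universal V6 kit. The authors deposited 2 tables: counts of reads per gene, not normalized, and FPKM per gene. The submitters' processing notes name fastp, HISAT2, HTSeq, DESeq2 and R 3.2.0 and the build GRCm39. The strand setting of the counting is not given in the sources used here. Genes were tested with edgeR 4.0.16 (quasi-likelihood, TMM scaling) in R 4.3.3, keeping genes by filterByExpr with a minimum count of 10, on 4 against 3 livers with no covariate. The thresholds, an adjusted p of 0.05 and a log2 fold change of 0.58, are those of the study, which used DESeq2. DESeq2 1.42.0, limma 3.58.1 on FPKM (log2 after adding 1 or 0.1), other scalings and filters, voom weights, a replicate block and leaving out each liver were the alternatives. On FPKM, a fold change is on the log2(value + pseudocount) scale and understates low genes.

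Members, lists and roles were chosen with earlier results of these data known. Every reported member is named, with values per mouse for those called, those whose groups did not overlap and those near the threshold. Of the pathway and marker lists, called genes are named, at most 5 a list, beside some that were not called. Samples were grouped by GEO's labels, and each library is the liver of a different mouse by the study's account. The least chi-square per gene over 21 pairs of libraries was 60.3, so none was a copy of another. The common biological coefficient of variation was 0.301. With 4 against 3 livers an exact permutation test of a single gene cannot go below p = 0.0286. The fits were also run on simulated counts with the same dispersion for every gene and no mitochondrial gap between the groups. That run does not show how the fits perform on these data. The reference at hand was GRCm38, so no gene coordinates are given beyond the promoter windows, and genes that are not reported here were left out of the members and lists.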

Additional observations from a re-analysis of the deposited data

Results flagged for a closer look

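In 4 of 42 groups of 4 livers, a liver lay far from the other 3 (Dixon's test), where chance gives about 1 in 20. The livers labelled hep-/- number 3 and were not tested in this way, so all values are from *B4galt1* flox/flox livers. *Ccl9* was at 74.2 CPM in replicate 1 and between 116 and 121 CPM in the other 3. *Xcr1* was at 1.63 CPM in replicate 1 and between 0.656 and 0.728 CPM in the others. *Ccl19* was at 0.586 CPM in replicate 3 and between 0.713 and 0.735 CPM in the others. *Ccr7* was at 1.92 CPM in replicate 4 and between 2.41 and 2.48 CPM in the others. None of these genes was called.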

How the results depend on the processing

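Of the 5 called members, *Cxcl1* was called under all 19 alternatives, and no called member changed sign. The number called was 9 with DESeq2 (where 21.3% of all genes were called), 9 with voom weights (19.7%), 3 with limma on log2(FPKM + 1) without a filter (5.79%) and 2 with the replicate block (8.35%), and 1 to 5 when a liver was left out: 1 without flox/flox replicate 2 (5.90% of all genes), 3 without flox/flox replicate 3 (9.36%), 2 without hep-/- replicate 2 (7.76%) and 3 without hep-/- replicate 3 (13.8%). The median log2 fold change was 0.09 with voom weights and ran from -0.27 to 0.06 when a liver was left out. Same-numbered livers did not deviate together (correlations of deviations -0.42, -0.10 and 0.09), so the numbers do not pair them; the replicate block left *Cxcl1* called with *Ccl5*. FPKM values shifted the median of all genes by -0.12 to -0.13; with limma, 18.2% to 24.5% of all called genes were then higher, against 50.5% with edgeR, and members were called 4 lower and 2 higher on log2(FPKM + 0.1).

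Signs turned only in members that were not called, and the cause was not tested. *Ackr1* was 0.31 with voom weights and 0.04 with the replicate block, and -0.68 to -0.01 when a liver was left out. *Ccr2* was -0.06, -0.08 and -0.06 with limma on log2(FPKM + 1), log2(FPKM + 0.1) and without a filter, and -0.01 with the replicate block. *Ccr9* was -0.02 with the filter of 1 count, -0.02 with limma without a filter and -0.09 with the replicate block. *Ccl4* was 0.09 with voom weights, and *Ccr6* and *Cxcr2* were -0.00088 and -0.03 with limma without a filter. When a liver was left out, values ran from -0.05 to 0.17 for *Ccr2*, -0.15 to 0.26 for *Ccr9*, -0.55 to 0.11 for *Ccl4*, -1.33 to 0.59 for *Ccr6*, -0.53 to 0.46 for *Cxcr2*, -0.37 to 0.28 for *Ackr4*, -0.38 to 0.06 for *Ccl19*, -0.69 to 0.09 for *Ccl22*, -0.41 to 0.04 for *Ccl3*, -0.05 to 0.52 for *Ccr7*, -0.24 to 0.51 for *Cxcl10*, -1.59 to 0.11 for *Cxcl5*, -0.08 to 0.47 for *Cxcl9* and -0.23 to 0.68 for *Cxcr3*.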
